A study of Homo sapiens with 34 samples.

Results

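The genes of NAD turnover were followed in U2OS, a human osteosarcoma line widely used as a cellular clock model, here stably carrying the luciferase reporter Bmal1:luc. The 8 members were NAMPT, NMNAT1, NMNAT3, NADSYN1, NNMT, PARP1, PARP2 and CD38, and each matched 1 of the 28690 annotated loci by its gene symbol. Of these, 7 belonged to the 14678 expressed loci, which had a mean of at least 0.7 FPKM (fragments scaled to transcript length and library size) over all libraries, whereas CD38 fell below that minimum. Both culture groups carried the same reporter and were synchronised with dexamethasone. The 6AN group received 5 mM 6-aminonicotinamide and the control group the matched DMSO solvent, and rRNA-depleted total RNA was sequenced from 12 time points per group, every 4 hr from CT00 to CT44. A further 10 ChIP-seq libraries, 1 per antibody or input and condition, were prepared from cells treated for 24 hr. There was 1 RNA library per time point, so replicate error could not be measured. The spread over time points is given instead, and it includes any trend or rhythm.

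Nicotinamide adenine dinucleotide (NAD) is both an electron carrier and a substrate that is cleaved. In the salvage route, nicotinamide released by NAD-cleaving enzymes is turned into nicotinamide mononucleotide by NAMPT, the rate-limiting step, and NMNAT enzymes then complete NAD. NNMT methylates nicotinamide and so withdraws it from salvage, while NADSYN1 makes NAD from the acid form that arises from nicotinic acid and tryptophan. PARP1, PARP2 and CD38 cleave NAD. 6AN is a nicotinamide analog that enters the same pathway and is built into an NADP-like compound, where it inhibits the pentose phosphate pathway. In mouse tissues NAMPT is known as a target of the circadian activators BMAL1 and CLOCK.

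The promoters of members with a BMAL1 or CLOCK peak within the transcribed locus or 10 kb of it are shown first. Each sequence is the 250 bases before the RefSeq start (build GRCh38.p14), read in the direction of the gene. In NAMPT (chr7:106284984-106285233, minus strand) and NMNAT1 (chr1:9943225-9943474, plus strand) capitals mark the bases inside the peak interval, and in PARP2 (chr14:20343385-20343634, plus strand) they mark motif matches. The PARP2 peak interval lies upstream of the bases shown, and only 50 bases of the NAMPT interval fall within them. NNMT, the fourth such gene, is named only.

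NAMPT: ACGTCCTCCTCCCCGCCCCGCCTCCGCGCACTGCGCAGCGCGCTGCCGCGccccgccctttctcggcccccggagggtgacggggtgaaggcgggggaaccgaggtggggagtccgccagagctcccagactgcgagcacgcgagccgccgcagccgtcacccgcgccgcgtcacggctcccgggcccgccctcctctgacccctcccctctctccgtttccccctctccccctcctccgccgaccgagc
NMNAT1: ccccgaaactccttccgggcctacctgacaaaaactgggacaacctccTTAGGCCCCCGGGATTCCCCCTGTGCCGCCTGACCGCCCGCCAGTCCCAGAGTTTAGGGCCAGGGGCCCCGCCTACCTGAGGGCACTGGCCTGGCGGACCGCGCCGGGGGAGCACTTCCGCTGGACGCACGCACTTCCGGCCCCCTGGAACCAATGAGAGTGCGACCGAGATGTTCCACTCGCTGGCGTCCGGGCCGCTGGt
PARP2: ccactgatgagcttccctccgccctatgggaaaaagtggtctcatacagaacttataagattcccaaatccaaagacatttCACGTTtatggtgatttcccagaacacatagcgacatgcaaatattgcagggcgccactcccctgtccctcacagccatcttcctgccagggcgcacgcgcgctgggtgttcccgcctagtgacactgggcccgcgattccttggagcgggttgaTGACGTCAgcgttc

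The E-box CACGTG, the sequence bound by BMAL1 and CLOCK, was searched on both strands of the window from 250 bases before to 50 after the start. It was present in 0 of the 7 members with a promoter entry, against 7.23% of 34943 promoter windows of the same length. The windows leave out the PARP2 peak interval and part of that of NAMPT, so the bound bases were not fully searched. The related CACGTT, which shares 5 of its letters, was found only in PARP2, 169 bases upstream and outside the peak interval, against 5.35% of windows. TGACNNNGC, the core of the antioxidant response element bound by NRF2, occurred 85 bases upstream in NAMPT, 63 bases upstream in NADSYN1 and 33 bases past the start in 1 of the 2 windows of NMNAT3, against 13.3% of windows. TGACGTCA, the cAMP response element, lay 14 bases upstream in PARP2 and in 1.84% of windows. This last motif was added after the PARP2 sequence had been seen.

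BMAL1 and CLOCK peaks lay near 4 of the 8 members, and within 10 kb of 31.4% of all expressed loci. In NAMPT (locus chr7:106248286-106285192 in hg38), an interval at chr7:106285184-106285384, 201 to 401 bp upstream of the start, held a BMAL1 peak of the control library alone, with a mean peak score of 17.4. In NMNAT1 (chr1:9922113-9985498), the interval at chr1:9943273-9943473, 2 to 202 bp upstream, held a CLOCK peak of the 6AN library alone, with a score of 17.6. Both scores were below the median of 18.5 over the 4001 merged intervals. The NMNAT1 start used here, chr1:9943475, lies inside the deposited locus, which thus also covers bases upstream of that start. Whether the peak and the reads of this locus belong to NMNAT1 alone was not tested. In NNMT (chr11:114295813-114312516), which methylates nicotinamide, the interval at chr11:114294886-114295259 lay 554 to 927 bp before the locus and held BMAL1 peaks of both conditions and a CLOCK peak of the 6AN library, with a score of 27.1. In PARP2 (chr14:20343614-20357904), the interval at chr14:20343138-20343352, 283 to 497 bp upstream, held BMAL1 and CLOCK peaks of the control libraries, with a score of 27.45. No interval lay within 50 kb of NMNAT3, NADSYN1, PARP1 or CD38. With 1 library per antibody and condition, a peak found in a single condition has no replicate check.

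**Figure D1:**
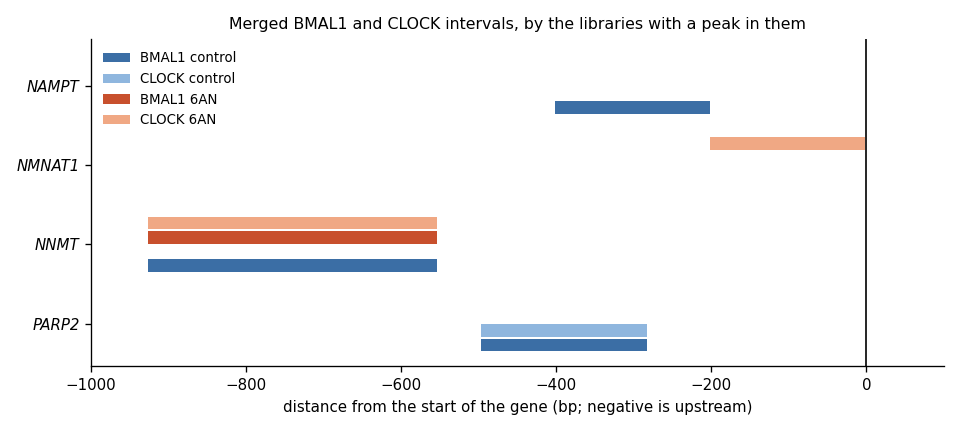
Position of the merged BMAL1 and CLOCK intervals near 4 members, as distance in bp from the start of the gene (negative is upstream), with 1 bar for each library that had a peak in the interval. All 4 intervals lie within 1000 bp upstream, those of NAMPT and NMNAT1 each rest on a single library, and for NNMT the distance is from the start of the deposited locus.

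The PARP2 interval was also 1 of the 147 sites shared by BMAL1 and CLOCK in control, where the deposited tables give a signal for every library (tags within 1000 bp, scaled to 10000000 tags per library). Its annotation is the promoter of RPPH1, the RNA of ribonuclease P, at 166 bp. The RPPH1 locus at chr14:20343071-20343411 encloses the interval. The BMAL1 signal at this site was 49.6 in control and 58.2 in 6AN, a log2 change of 0.23. The CLOCK signal was 49.0 in control and 37.4 in 6AN, a log2 change of -0.38. These rest on 37 and 46 BMAL1 tags and on 20 and 17 CLOCK tags, so the 95% exact binomial intervals of the log2 change ran from -0.42 to 0.90 for BMAL1 and from -1.42 to 0.61 for CLOCK, and both cover counting error only. Over all 147 sites the median log2 change was 0.22 for BMAL1 and 0.86 for CLOCK. CLOCK signal was at least 1.5-fold higher in 6AN at 68.7% of them and lower by that fold at 0.68%, whereas BMAL1 was higher by that fold at 11.6% and lower at 4.08%. Without subtraction of the input, the PARP2 site passed this fold for neither factor. Its H3K9ac signal, a mark of active chromatin, was 174 in control and 195 in 6AN, its H3K4me3 signal 267 and 237, and its input 17.6 and 23.8. With the log2 change of the input subtracted, that of BMAL1 turned to -0.19 and that of CLOCK was -0.80, the latter past the 1.5-fold limit. The input change was 0.42 at this site and had a median of 0.52 over all 147 sites. The subtracted values are therefore not comparable with the medians of BMAL1 and CLOCK above, which are without subtraction.

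By level, the members spanned a wide range, and FPKM allows comparison between genes because it is scaled to length. In control the order was NNMT at 353 ± 49.1 (SD, n = 12 time points), PARP1 at 86.9 ± 4.36, PARP2 at 36.2 ± 3.0, NADSYN1 at 26.1 ± 1.61, NAMPT at 21.6 ± 1.96, NMNAT1 at 10.3 ± 1.84, NMNAT3 at 0.656 ± 0.171 and CD38 at 0.481 ± 0.236 FPKM. The ranges of NADSYN1 and NAMPT overlapped, and so did those of NMNAT3 and CD38, while all other neighbours in this order were apart. In 6AN, PARP2 moved from the third place to the fifth, behind NADSYN1 and NAMPT, and NAMPT was above PARP2 at 8 of 12 time points. The ranges of NADSYN1 and NAMPT, of NAMPT and PARP2 and of NMNAT3 and CD38 overlapped in 6AN, and the other neighbours were apart. The most stable member was PARP1, with a coefficient of variation over time of 5.02% in control and 3.85% in 6AN. The least stable was NMNAT3 in 6AN at 49.4% and CD38 in control at 49.1%. Both are at low levels, where counting error weighs more. The NMNAT3 figure also includes the 6AN library of CT08. Its level in 6AN was 1.28 ± 0.63 FPKM with that library and 1.135 ± 0.413 without it.

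**Figure D2:**
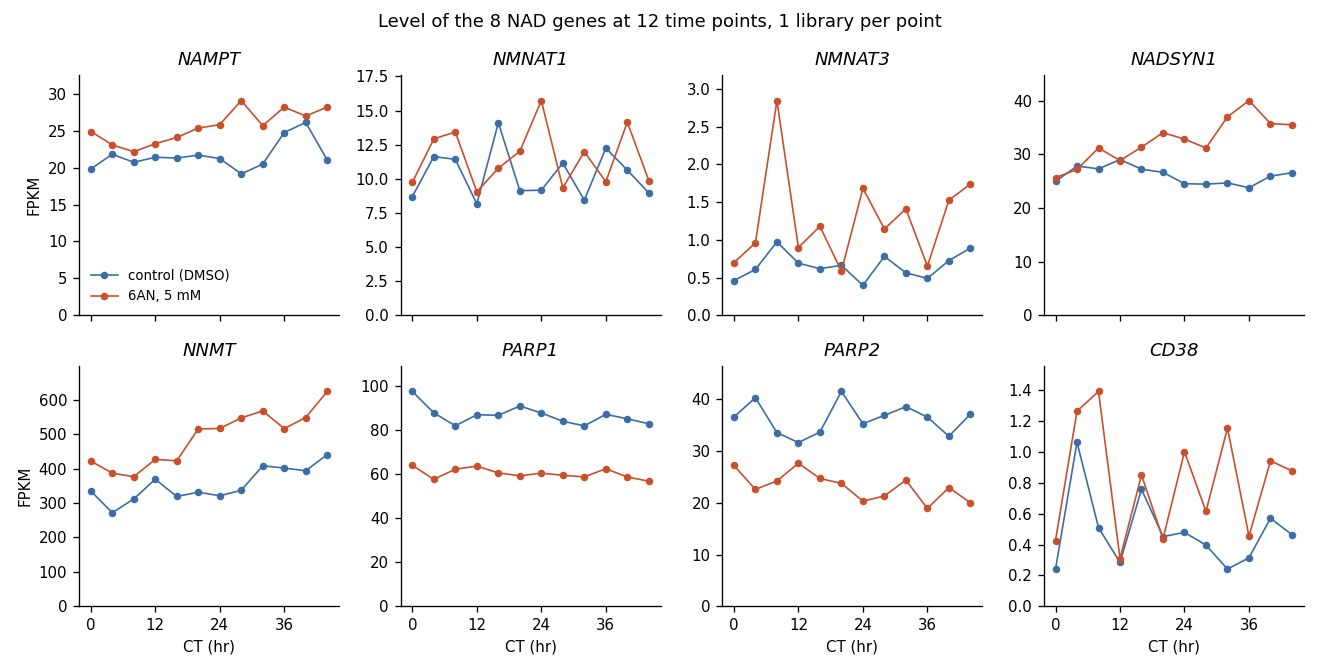
FPKM of the 8 members (y axis, from 0) against CT in hr (x axis) in control and 6AN, 1 library per point. PARP1 and PARP2 run below control at every time point, whereas NAMPT and NNMT run above it, and in NADSYN1 the lines separate as time goes on.

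The libraries bear on these levels in several ways. Relative depth, estimated from loci above 0 in 2 to 5 libraries, ranged from 0.586 to 1.30 of the table's median in control and from 0.697 to 1.26 in 6AN, and absolute depth is unknown. The 6AN library of CT08 stood apart in small structured RNAs (examples chosen after their values were seen), with RMRP at 2215 FPKM against 50.02 to 130 FPKM in the other 6AN libraries and RN7SK at 2639 against 116 to 238 FPKM. NAMPT and NNMT were lowest, and NMNAT3 and CD38 highest, among 6AN libraries in that same library. The osteoblast and mesenchyme markers were present for 7 of 9 genes, with COL1A2 at up to 0.106 FPKM and SP7 at up to 0.175 FPKM in control. Their summed level was 1229 to 1645 FPKM in control and 820 to 1197 in 6AN. Of the markers of other cell types, 1 of 2 epithelial genes, 0 of 1 endothelial gene and 0 of 1 hepatocyte gene were in the expressed set, with summed levels of at most 1.74, 0.843 and 0.104 FPKM in any library. Of the haematopoietic markers, PTPRC reached at most 0.108 FPKM in control and 0.446 in 6AN, MS4A1 at most 0.0910 and 0.252, and CD3E was listed at 0 in 23 of 24 libraries. The part of these shifts in the results was not tested.

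Comparing 6AN with control addresses how the NAD genes stood in treated cells. The nicotinamide-handling members NAMPT and NNMT were higher in 6AN at all 12 time points, and the nuclear NAD consumers PARP1 and PARP2 were lower at all 12. The 2 tables were normalised separately, so this is a description without a test, given as the mean over time points of log2 of (6AN FPKM + 1) over (control FPKM + 1). Of the 7 expressed members, 2 were higher at every time point, against 12.6% of all expressed loci, and 2 were lower at every time point, against 19.8%. PARP1 and PARP2 also had all 12 values of 6AN below all 12 of control, as did 9.93% of expressed loci, while 0 of 7 members had the reverse, against 5.66%.

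Among the salvage enzymes, NAMPT lay between 19.1 and 26.1 FPKM in control, with a median of 21.3, and between 22.1 and 29.1 in 6AN, with a median of 25.5. The control values at CT36 and CT40 (24.7 and 26.1) rose into the 6AN range, so the groups overlapped, and 4 of the 6AN values exceeded the control maximum. The mean log2 ratio was 0.23 ± 0.15 (SD over 12 time points). It was smallest at CT40, at 0.05, and largest at CT28, at 0.58, and 20.7% of expressed loci had a higher ratio.

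NMNAT1, the nuclear enzyme that joins nicotinamide mononucleotide to ATP, was between 8.17 and 14.1 FPKM in control and between 9.05 and 15.7 in 6AN. It was higher in 6AN at 9 of 12 time points, with a log2 ratio of 0.15 ± 0.32, so the mean lay within the spread over time. NMNAT3, a family member assigned to mitochondria, had a low level, from 0.398 to 0.974 FPKM with a median of 0.642 in control and from 0.586 to 2.84 with a median of 1.16 in 6AN. It was higher at 11 of 12 time points, the exception being CT20, and the log2 ratio was 0.42 ± 0.32. Its highest value came from the 6AN library of CT08, and without that time point the ratio was 0.37 ± 0.28. With a pseudocount of 0.1 the ratio was 0.77, since at such low values the pseudocount sets the scale. The NMNAT3 values (locus chr3:139389803-139678043) are uncertain, since reads there may have been split with overlapping annotation.

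NADSYN1 (chr11:71453171-71501535), the glutamine-dependent NAD synthetase, started level in both cultures, at 24.97 FPKM in control and 25.7 in 6AN at CT00. It then ranged from 23.8 to 29.03 in control, with a median of 26.3, and up to 40.03 in 6AN, with a median of 32.1. The ratio was 0.12 ± 0.15 over the first 6 time points and 0.48 ± 0.14 over the last 6, and 9 of the 12 values in 6AN were above the highest of control. It was higher at 10 of 12 time points, with a mean log2 ratio of 0.30 ± 0.23, and 15.9% of expressed loci had a higher ratio.

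NNMT was the most abundant member. It lay between 272 and 441 FPKM in control, with a median of 336, and between 376 and 624 in 6AN, with a median of 516. The groups overlapped, although each 6AN value was above the control value of its time point. The mean log2 ratio of 0.46 ± 0.16 was the largest among the members higher at all 12 time points, and 8.72% of expressed loci had a higher one.

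PARP1 (chr1:226360691-226408100), the main poly(ADP-ribose) polymerase that answers to DNA breaks, was between 82.1 and 97.7 FPKM in control, with a median of 87.0, and between 56.9 and 64.1 in 6AN, with a median of 60.1. The highest 6AN value was thus below the lowest of control. The log2 ratio was -0.52 ± 0.07, the narrowest spread of all 8 members, and 11.6% of expressed loci had a lower ratio. PARP2, its close relative in DNA repair, was between 31.7 and 41.5 FPKM in control, with a median of 36.6, and between 18.9 and 27.7 in 6AN, with a median of 23.4, again without overlap. The log2 ratio was -0.63 ± 0.22, from -0.19 at CT12 to -0.92 at CT36, and 8.36% of expressed loci had a lower one. The ratio of mean levels was 0.696 for PARP1 and 0.640 for PARP2. RPPH1, whose locus lies just before that of PARP2, was at 1345 FPKM in the 6AN library of CT08 and between 13.3 and 102 FPKM in all others, while PARP2 was at 24.2 FPKM there. Without CT08 the log2 ratio (± SD over 11 time points) was -0.64 ± 0.23 for PARP2 and -0.53 ± 0.06 for PARP1. It was 0.24 ± 0.16 for NAMPT and 0.48 ± 0.15 for NNMT. In bulk RNA, fewer cells that express a gene and less RNA per cell cannot be told apart.

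CD38 (chr4:15778265-15853243), an NAD glycohydrolase of the cell surface best known from leukocytes, was between 0.241 and 1.06 FPKM in control and between 0.309 and 1.39 in 6AN, which overlapped. It was higher in 6AN at 11 of 12 time points, with a log2 ratio of 0.28 ± 0.25, or 0.63 with a pseudocount of 0.1. At CT04 it was at 1.06 FPKM in control and 1.26 in 6AN, and at CT12 at 0.284 and 0.309, whereas at CT32 it was at 0.241 and 1.155 and at CT08 at 0.510 and 1.39. The 2145 other expressed loci with a mean under 2 FPKM were also high at CT04, with a median log2 deviation from their own mean of 0.07 in control and 0.06 in 6AN, and low at CT12, at -0.05 in both. Over the 12 libraries of a culture, the correlation r of CD38 with these low-level loci was 0.91 in 6AN and 0.78 in control. It was 0.594 and 0.586 for NMNAT1, and 0.61 and 0.31 for NMNAT3. The part of this shift in the values of these 3 genes was not tested.

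**Figure D3:**
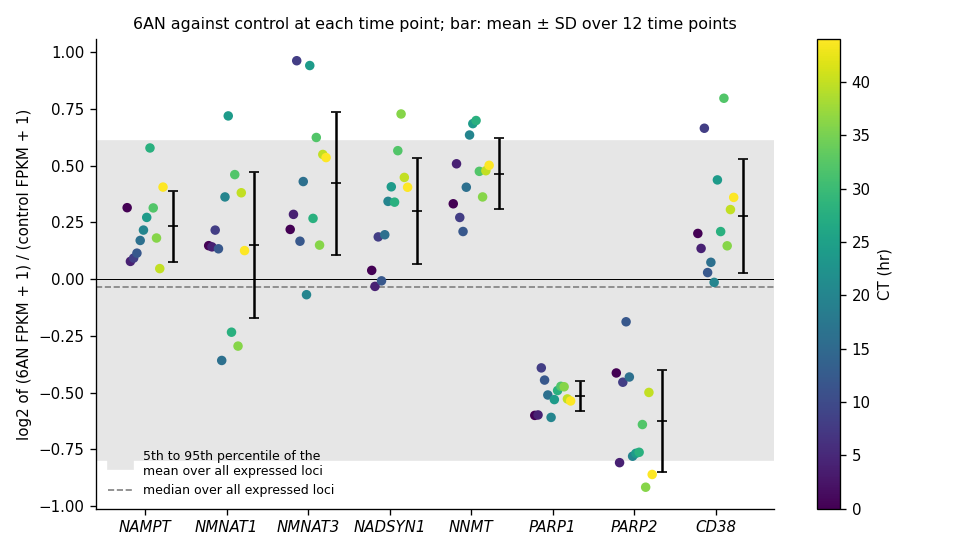
Log2 of (6AN FPKM + 1) over (control FPKM + 1) at each of 12 time points (coloured by CT in hr) for the 8 members, with the mean ± SD over time points as a black bar and the range of the 5th to 95th percentile of all expressed loci (-0.80 to 0.61) in grey. All points of PARP1 and PARP2 lie below 0 and all points of NAMPT and NNMT above it, and each mean lies inside the grey range.

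Within the 6AN culture, NAMPT, NADSYN1 and NNMT rose and PARP2 fell over the 44 hr, whereas in control none of the 7 tested members passed the same test. The test was limma's moderated slope on log2(FPKM + 1) with a 24 hr cosine and sine in the model, called at a Benjamini-Hochberg adjusted p of at most 0.05 over all expressed loci. In 6AN the background was 10.2% of loci rising and 12.3% falling, against 3 and 1 of 7 members. In control it was 2.3% rising and 2.56% falling, against 0 of 7 members. There 2 members had an unadjusted limma p under 0.05. By Spearman's test 0 members in control had an adjusted p of at most 0.05. The difference in slope between cultures was not tested, because the tables were normalised separately, and neighbouring time points may not be independent.

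NNMT rose by a fitted 0.71 ± 0.08 (SE) on the log2 scale from CT00 to CT44 in 6AN, with an adjusted p of 7.67e-04 by limma. The measured values at CT00 and CT44 were 422 and 624 FPKM, a smaller difference than the fitted one. In control its change was 0.44 ± 0.13 with an adjusted p of 0.0935, which became 0.0286 when CT00 was left out (change 0.59) and 0.0312 without the cosine and sine. NADSYN1 rose by 0.46 ± 0.09 in 6AN (limma, adjusted p = 0.00829), while its change in control was -0.17 ± 0.08 (adjusted p = 0.290). NAMPT rose by 0.33 ± 0.07 in 6AN (limma, adjusted p = 0.0125), against 0.08 ± 0.10 in control (adjusted p = 0.755). These 3 rises held when any 1 time point was left out.

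PARP2 fell by 0.40 ± 0.12 on the log2 scale in 6AN, with an adjusted p of 0.0445 by limma, and its change in control was 0.07 ± 0.11 (adjusted p = 0.799). This call was near its limit: it was kept without CT04 or CT32, while leaving out any of the other 10 time points took the adjusted p to between 0.0510 and 0.152, and Spearman's test gave 0.121. For PARP1 the changes were -0.10 ± 0.06 in 6AN and -0.14 ± 0.06 in control, with adjusted p of 0.236 and 0.248. The lower PARP1 level in 6AN was thus present from CT00, at 64.1 against 97.7 FPKM. The changes of NMNAT1 and NMNAT3 were smaller than their errors, with 0.05 ± 0.26 and 0.30 ± 0.38 in 6AN and -0.08 ± 0.24 and 0.06 ± 0.16 in control.

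**Figure D4:**
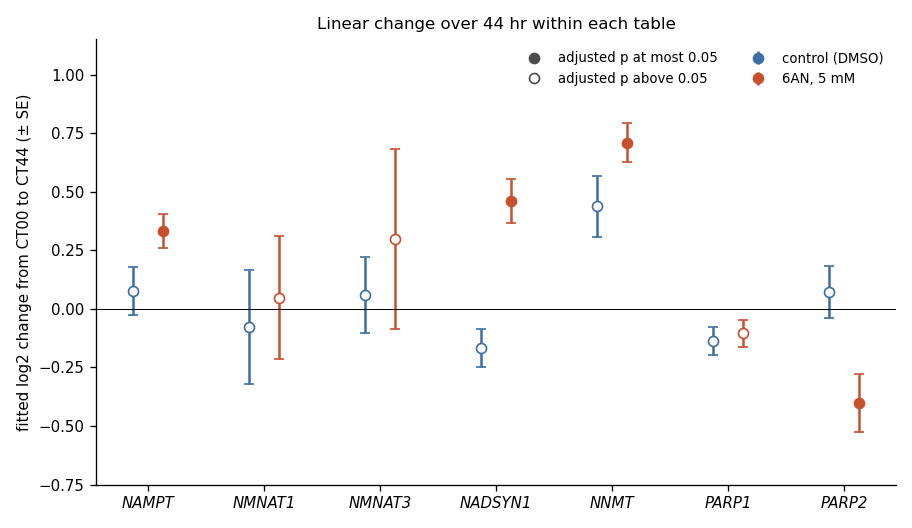
Fitted log2 change from CT00 to CT44 (y axis, ± SE) of the 7 expressed members in control and 6AN, with filled points where the adjusted p was at most 0.05. Filled points appear in 6AN alone, for NAMPT (0.33), NADSYN1 (0.46), NNMT (0.71) and PARP2 (-0.40), and the difference between cultures was not tested.

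The rhythm test asked whether the NAD genes cycled with a 24 hr period, NAMPT above all. None of the 7 members had an umbrella rank p of at most 0.01 for a 24 hr rhythm in either culture, against 1.01% of expressed loci in control and 0.933% in 6AN. By this permutation test the members' p ran from 0.159 to 0.928 in control and from 0.419 to 0.925 in 6AN, so 0 members were under an unadjusted 0.05, and 0 passed 0.01 by harmonic regression with limma. For NAMPT it was 0.295 in control and 0.756 in 6AN, with fitted log2 amplitudes of 0.09 and 0.06. Over 9 clock genes measured in the same libraries, amplitudes ran from 0.21 to 0.46 in control and from 0.35 to 0.72 in 6AN, and 4 and 5 of them had a p of at most 0.01. ARNTL, which encodes BMAL1, had an amplitude of 0.41 and a p of 1.40e-04 in control, with a fitted peak at CT 11.6 hr. A p above the threshold with 12 time points does not show that a rhythm is absent, and after adjustment over all expressed loci 0 loci passed 0.05 in either culture, the smallest adjusted p being 0.330 in control and 0.815 in 6AN.

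The other genes that make or phosphorylate NAD were read from a list of 16, of which NAPRT and TDO2 had 2 loci each and were given no value, and 9 were expressed. Of these 9, 1 was higher in 6AN at all 12 time points and 3 were lower, against 12.6% and 19.8% of all expressed loci, with a median log2 ratio of 0.04 beside -0.04 over all expressed loci. QPRT, which feeds the tryptophan route into NAD, was the lowest: 27.7 to 49.3 FPKM in control and 12.6 to 21.8 in 6AN, without overlap, a log2 ratio of -1.02 ± 0.18. KYNU, kynureninase of the same route, had a ratio of -0.59 ± 0.39, from 1.65 to 4.88 FPKM in control and from 0.797 to 2.72 in 6AN. NADK, the cytosolic NAD kinase that makes NADP, had a ratio of -0.17 ± 0.09, while its mitochondrial counterpart NADK2 had 0.27 ± 0.14, from 13.8 ± 1.60 to 16.8 ± 1.30 FPKM. Both kinases overlapped between cultures. KYNU and NADK2 rose within control, by 0.86 ± 0.21 and 0.41 ± 0.09 on the log2 scale (limma, adjusted p = 0.0498 and 0.0391). The call for KYNU was kept only without CT08, with an adjusted p of up to 0.1003 otherwise, and that for NADK2 only without CT16 or CT36, with up to 0.122 otherwise. In 6AN 0 of the 9 passed the trend test, and 0 passed the rhythm test in either culture.

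Of 22 other genes that attach, remove or read ADP-ribose or otherwise consume NAD, 20 were expressed. In 6AN 5 of the 20 were higher at all 12 time points and 6 were lower, against 12.6% and 19.8% of all expressed loci, with a median log2 ratio of -0.04, as over all expressed loci. PARP9 had the largest difference of the list, from 10.3 to 14.4 FPKM in control and from 2.26 to 4.09 in 6AN, a log2 ratio of -1.60 ± 0.20. PARP14, which like PARP9 is known as an interferon-induced member of the family, had 10.9 to 14.2 FPKM in control and 7.39 to 10.1 in 6AN, a ratio of -0.50 ± 0.14. HPF1, the cofactor that directs PARP1 and PARP2 to serine residues, had 15.8 to 22.9 FPKM in control and 8.63 to 14.3 in 6AN, a ratio of -0.62 ± 0.26. PARP6, a mono-ADP-ribosyltransferase, was the reverse, with 19.2 to 27.1 FPKM in control and 30.9 to 42.2 in 6AN, a ratio of 0.58 ± 0.18. Of the 20 genes, 1 (PARP6) had all 6AN values above all of control and 4 (PARP9, PARP10, PARP14 and HPF1) had all below, against 5.66% and 9.93% of expressed loci. PARG, which removes poly(ADP-ribose) chains, rose within 6AN by 0.37 ± 0.06 on the log2 scale (limma, adjusted p = 0.00243), and this held whichever time point was left out. PARP10 had a rhythm p of 0.00775 in 6AN by the umbrella permutation test, which 0.933% of expressed loci passed at 0.01. The p rose above 0.01 when any of 8 time points was left out, to at most 0.0361, was 0.0163 with the linear trend removed, and was 0.0200 by harmonic regression with limma (0.0197 without the trend term).

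**Figure D5:**
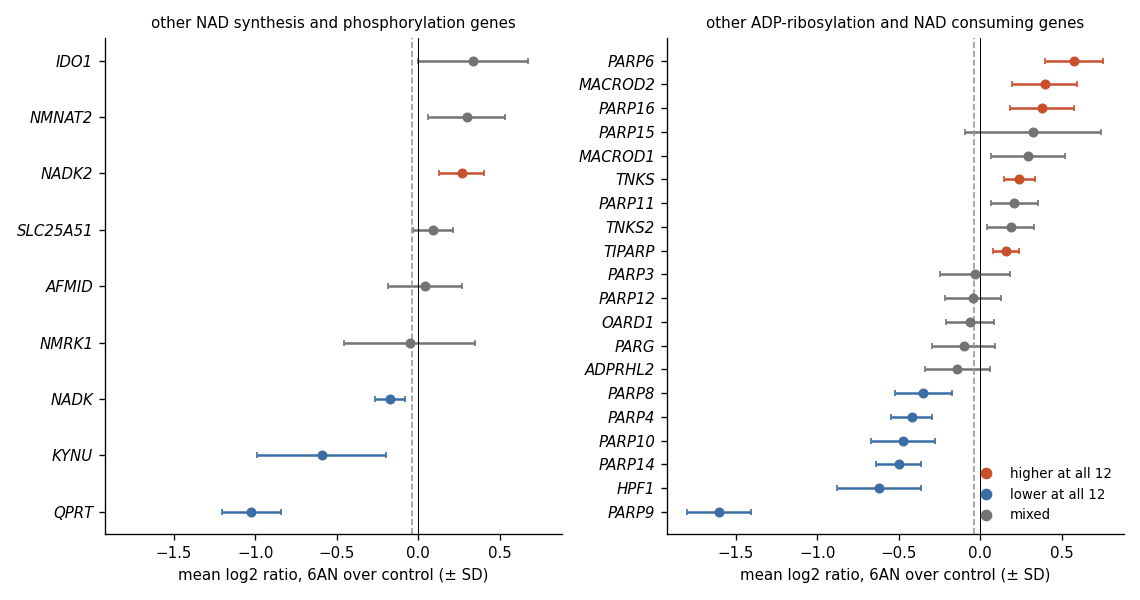
Mean log2 ratio of 6AN over control (x axis, ± SD over 12 time points) for the expressed genes of the 2 lists, coloured by whether they were higher or lower at all 12 time points, with the median of all expressed loci as a dashed line. QPRT (-1.02) and PARP9 (-1.60) lie farthest below 0 and PARP6 (0.58) farthest above it.

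The loci whose profiles were most like those of the members were sought by Pearson's r over all 24 libraries after centring log2(FPKM + 1) within each culture. These values are descriptive, because the libraries of a time course share trends. For NNMT the nearest were GARS at 0.91 and RPL23 at 0.90, for NADSYN1 LINC00094 at 0.84 and PLAC8 at 0.82, and for PARP1 DDX23 and TCOF1, both at 0.84. NAMPT was nearest to ZNF277 at 0.81 and RDH10 at 0.80, PARP2 to NCOA6 at 0.77 and RFC4 at 0.75, and NMNAT1 to LOC101929372 at 0.75 and CEP41 at 0.74. NMNAT3 was nearest to RN7SL2, the RNA of the signal recognition particle, at 0.77, which became 0.58 without the 6AN library of CT08, and then to LOC729603 at 0.76. Among the members themselves, NAMPT and NNMT had the highest r, 0.61, and NADSYN1 and PARP2 the lowest, -0.53.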

How the data were processed

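Gene levels were taken from 2 deposited tables of FPKM, 1 for control and 1 for 6AN, which the authors made from single-end 50 bp reads with Bowtie, TopHat and Cufflinks on hg38 (versions not given in the sources used here) and normalised separately. RNA was extracted in triplicate per the methods, while 1 library per time point was analysed. Whether counting used strand is not given in the sources used here. The deposited ChIP-seq tables hold a signal, tags within 1000 bp scaled by the authors with HOMER to 10000000 per library (1409550 to 33273106 tags), and a peak score, the mean HOMER score the authors gave each interval merged within 200 bp. Peaks were called per library by the authors, and a merged interval names the libraries with a peak in it.

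The members and gene lists were chosen with earlier results of these data known. Tests stayed within a table. For rhythms, an umbrella rank statistic after RAIN (18 shapes, 24 hr) was set against 1000000 random orders of the time points (Python 3.11.15, NumPy 2.4.6), and trends were tested with limma 3.58.1 in R 4.3.3 on log2(FPKM + 1), both over 14678 loci with a mean of at least 0.7 FPKM. Samples were grouped by the agent and time given in their labels. Named were all 8 members, up to 4 genes of each list with the largest absolute mean ratio among those higher or lower at all 12 time points, those past a test, and the 2 loci most alike to each member. Peaks within 10 kb were counted. Promoter sequences came from RefSeq (GRCh38.p14), which matched 7 of 8 members. On data simulated from the control table over 14678 loci, 196 of 200 slopes of 8 SD were recovered by limma and 117 of 200 rhythms with an amplitude of 2 SD by the rank test. The simulated time points were independent and smaller slopes were not simulated, so the recovery of smaller changes is unknown. Alternatives were other tests, pseudocounts, filters, scalings and windows, and leaving out each time point. Columns of per-sample values left unmatched numbered 0. Some checked items are not reported here.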

Additional observations from a re-analysis of the deposited data

How the results depend on the processing

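The counts of members past each test or described at all 12 time points stayed within 1.5 times under 81 of 84 alternatives. Some of these could not lower a count. Leaving out a time point or changing the pseudocount keeps every gene with 1 sign at all 12 time points, so it is no check on that count. The limit of 1.5 times also takes in a move from 4 to 3. The count of members with a trend in 6AN was 3 or 4 throughout, and PARP2 was the member lost. The count of members with a trend in control went from 0 to 1 without the cosine and sine, and ranged from 0 to 1 when a time point was left out (NNMT in both cases). The count of members with a peak went from 4 to 2 when intervals were limited to scores above the median, which leaves NNMT and PARP2. Rescaling the 6AN table by 1.03, so that the median log2 ratio was 0, moved the members higher or lower at all 12 time points from 4 to 5 by adding NADSYN1. The share of all expressed loci higher at all 12 time points also moved, from 12.6% to 15.1%. The share lower at all 12 moved from 19.8% to 16.9%.

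The direction of some small changes over 44 hr turned. For NMNAT1 in 6AN the change was -2.30e-04 on the log2 scale without the cosine and sine, and with 1 time point left out it ranged from -0.13 to 0.21 (below 0 without CT00, CT12, CT24 or CT40). For NMNAT1 in control that range was -0.27 to 0.11 (above 0 without CT16 or CT32), and for NMNAT3 in control -0.084 to 0.14 (below 0 without CT00 or CT44). None of these changes had passed the test. The fall of PARP2 in 6AN lost its call without the cosine and sine (adjusted p = 0.0598, limma) and over all loci above 0 (0.0617), the cause of which was not tested. Subtracting the input from the PARP2 site gave log2 changes of -0.19 for BMAL1 and -0.80 for CLOCK. The input rose at most of the shared control sites, with a median log2 change of 0.52, so this shift is not particular to PARP2. No paired analysis was possible because 6AN and control, though matched by time point, were in separately normalised tables and no test was made between them. The depth behind the FPKM values is unknown, and the PARP2 site rests on 17 to 46 tags of BMAL1 or CLOCK per library. The profile alternative without the 6AN library of CT08 was chosen after seeing the data.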
